A study of Homo sapiens with 8 samples.

Results

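Ephrins and Eph receptors form a family of cell-contact signalling proteins, and 10 of their genes, 6 ligands and 4 receptors, were followed in 8 RNA-seq libraries of HCT116 cells, an established human colorectal cancer cell line. The members were taken by symbol (EFNA1, EFNA3, EFNA4, EFNA5, EFNB1, EFNB2, EPHA2, EPHB2, EPHB3 and EPHB4) from the 39533 rows of the count table, and all 10 have a row. They were chosen by symbol with the counts and the group differences of all 8 libraries in view, so every contrast counts as used. Levels and fold changes are given as a description, and no p-value of a single member is printed. Where a member is said to be past a threshold or called, this is description too and no support. Another 12 genes of the family are in the table and are treated apart from them.

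The libraries came from a model of tumour self-seeding, in which tumour cells that circulate in the blood settle again in a tumour. They fall into tumour self-seeded cells (TSC, n = 3) and primary tumour cells (PC, n = 3), both recovered from the primary tumour, and circulating tumour cells (CTC, n = 2), recovered from blood. All groups are the same line. The host animal, its age, the injection scheme and the marking that set TSC apart from PC are not stated in the available labels, and nothing says that replicates came from separate animals. The line is colorectal although liver cancer stands in the series title. Total RNA was depleted of ribosomal RNA before sequencing.

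Eph receptors are receptor tyrosine kinases that bind ephrins on the surface of a neighbouring cell, and signals pass into both cells. Ephrin-A ligands are held in the membrane by a lipid anchor and mostly bind EphA receptors, whereas ephrin-B ligands span the membrane, carry a cytoplasmic tail and mostly bind EphB receptors. In the intestine, EPHB2 and EPHB3 are Wnt target genes of the crypt base, and repulsion between EphB receptors and ephrin-B ligands keeps crypt cells and differentiating cells apart.

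The promoters of EFNB2, EPHA2 and EFNB1 show how differently the members' start regions are built. EFNB2 and EPHA2 are the pair that lay lowest in TSC relative to PC, and EFNB1 is the close relative of EFNB2 whose level lay about the same in TSC and PC. All 10 members matched a RefSeq promoter window (GRCh38.p14, 250 bases before to 50 after the gene's start), and the windows below are written 5′ to 3′ on the gene's strand. Capitals mark TATAAA (the TATA box), CCAAT (the CCAAT box), GGGCGG (the GC box) and TGACGTCA (the cAMP response element), or their reverse complements.
EFNB2, chr13:106535613-106535912, minus strand: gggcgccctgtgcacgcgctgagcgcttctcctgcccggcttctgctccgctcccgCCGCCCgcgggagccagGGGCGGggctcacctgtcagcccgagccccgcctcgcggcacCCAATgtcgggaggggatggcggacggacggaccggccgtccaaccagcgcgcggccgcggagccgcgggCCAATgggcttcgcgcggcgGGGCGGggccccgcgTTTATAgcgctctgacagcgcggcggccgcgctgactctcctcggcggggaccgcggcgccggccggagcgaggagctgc
EPHA2, chr1:16156020-16156319, minus strand: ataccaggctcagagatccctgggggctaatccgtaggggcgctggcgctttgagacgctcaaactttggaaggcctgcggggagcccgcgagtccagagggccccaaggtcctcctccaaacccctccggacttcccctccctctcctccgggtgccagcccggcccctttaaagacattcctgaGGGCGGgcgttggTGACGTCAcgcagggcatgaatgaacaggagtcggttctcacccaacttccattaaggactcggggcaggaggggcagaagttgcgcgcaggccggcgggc
EFNB1, chrX:68828771-68829070, plus strand: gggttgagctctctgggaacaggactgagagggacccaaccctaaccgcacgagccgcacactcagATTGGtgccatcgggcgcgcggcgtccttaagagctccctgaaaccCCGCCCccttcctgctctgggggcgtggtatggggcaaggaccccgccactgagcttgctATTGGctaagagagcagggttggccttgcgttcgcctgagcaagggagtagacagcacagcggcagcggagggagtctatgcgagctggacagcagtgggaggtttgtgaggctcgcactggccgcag

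Only EFNB2 among the 10 member windows had a TATAAA match, and it lay on the strand opposite the gene. On the gene's strand it reads TTTATA, which begins 30 bases before the start. On either strand, 11.6% of all 34943 windows hold a match. EPHA2 alone among the members held TGACGTCA, which begins 51 bases before the start and is present in 1.84% of all windows. CCAAT was found in 5 members and in 34.6% of all windows, and GGGCGG in all 10 members and in 44.9% of windows. Both strands were searched, and a palindrome was counted once. The AP-1 motif TGANTCA was in 0 members (7.72% of windows), the RBPJ motif TGGGAA in 3 (24%), and the hypoxia response cores ACGTG in 1 (21.4%) and GCGTG in 8 (36.5%). In EPHA2 the GCGTG match shares bases with TGACGTCA. The motifs were chosen after the sequences had been seen, a match is a run of letters and not a shown binding site, and the G+C content of the member windows, 58.3% to 83.0%, is mostly above the median of 58.7% over all windows.

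Depth varied: TSC libraries held 4578869 to 14717833 counts, the CTC libraries 957607 and 10524069 (replicates 1 and 2), and PC libraries 10864761 to 19264595. The 10 members held 1938 to 8679 counts in TSC, 507 and 4967 in CTC, and 8023 to 16836 in PC. Levels are given in CPM, read counts scaled to a common library size with TMM factors, which adjust for library composition. The libraries held epithelial transcripts: the 8 epithelial markers summed to 8094 to 9313 CPM in TSC, 5186 and 7701 CPM in CTC, and 6024 to 8118 CPM in PC, and CLDN7 was at 0 in all libraries. The markers did not move together. EPCAM was at 472 to 616 CPM in TSC, 568 and 546 CPM in CTC, and 391 to 469 CPM in PC, whereas CDH1 was at 130.1 to 158.7 CPM in TSC, 111 and 82.3 CPM in CTC, and 135 to 213 CPM in PC. The CTC libraries also held blood cell transcripts. The 16 leukocyte markers summed to 390 and 143 CPM in CTC, against TSC sums of 2.82 to 5.70 CPM and PC sums of 2.96 to 4.02 CPM, and CD3E, CD2, NKG7, S100A8 and S100A9 were at 0 throughout. The 7 erythroid markers summed to 195 and 252 CPM in CTC and were at most at 1.59 CPM elsewhere. Their part in the CTC differences below was not tested. In bulk RNA, fewer cells with a transcript and less transcript per cell cannot be told apart.

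Per kilobase of exon, the most abundant members were the ligand gene EFNB2 and the receptor genes EPHA2 and EPHB4. In TSC, EPHA2 led with 28.9 ± 9.23 CPM per kilobase (SD, n = 3), followed by EFNB2 with 21.1 ± 2.55 and EPHB4 with 20.9 ± 4.90, and the ranges of these neighbours overlapped. In CTC the order was the same, at 27.4 ± 6.16, 25.8 ± 9.02 and 18.6 ± 1.90 CPM per kilobase (SD, n = 2), again with overlapping ranges. In PC, EFNB2 led with 49.7 ± 7.33 and EPHA2 followed with 46.8 ± 5.90 CPM per kilobase (SD, n = 3). These overlapped each other, and both lay above every PC library of EPHB4 (23.2 ± 2.94). EFNA3, EFNA4 and EFNB1 came next, between 8.12 and 13.8 CPM per kilobase on average in each group, and overlapped in TSC and PC. EFNA1, EPHB2 and EPHB3 lay lower, at averages of 2.72 to 5.50 CPM per kilobase. With the longest coding transcript as the length, EPHB4 moved above EFNB2 in TSC (31.1 and 21.2 CPM per kilobase) and in CTC (27.6 and 25.9). Their ranges then overlapped in CTC but not in TSC, where EFNB2 reached 23.97 at most and EPHB4 was at 24.3 or more.

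**Figure D1:**
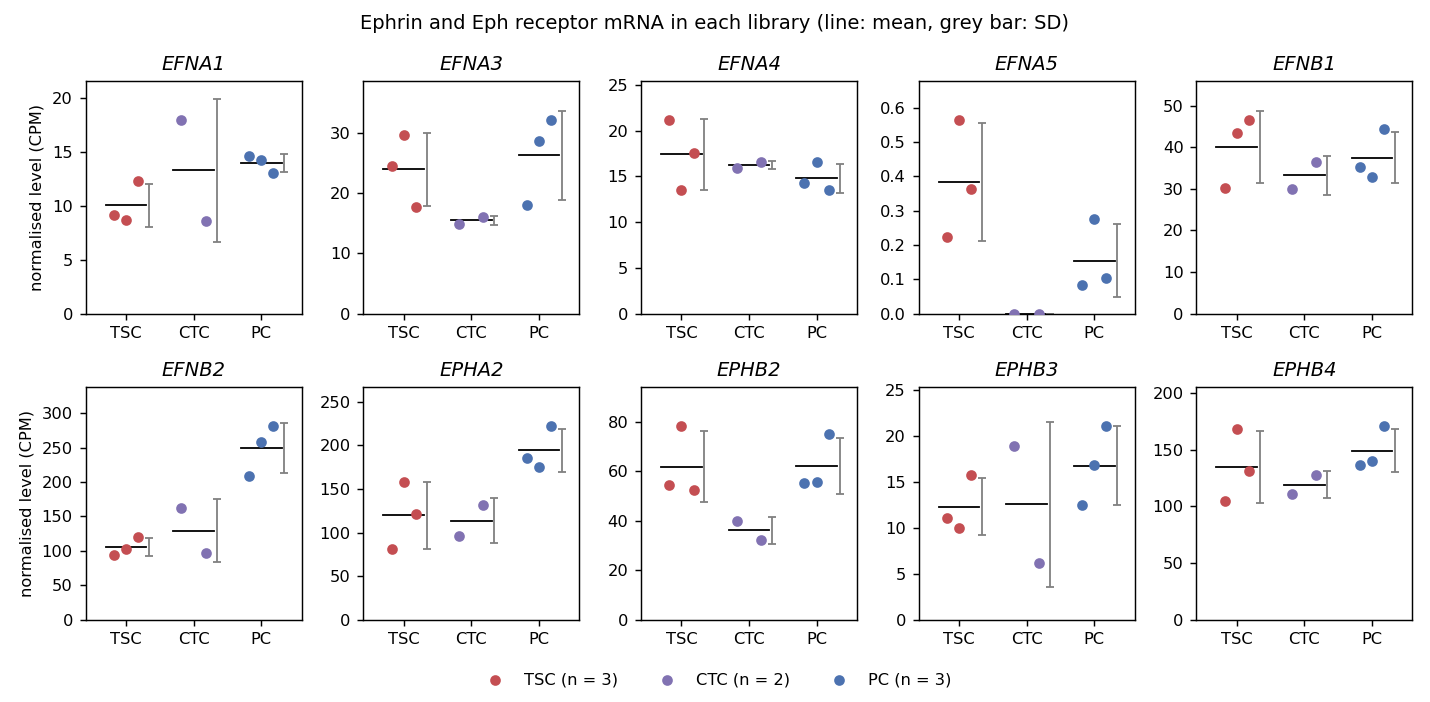
Normalised level (CPM, vertical axes from 0) of the 10 member genes in each library of TSC, CTC and PC; points are libraries, the line is the group mean and the grey bar its SD. EFNB2 lies between 94.7 and 120 CPM in TSC, at 162 and 97.6 CPM in CTC and between 209 and 281 CPM in PC.

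EFNB2, which encodes ephrin-B2, a transmembrane ligand of EPHB4 and of other EphB receptors, showed the widest separation among the members. It lies on chromosome 13 (106489745 to 106535662, minus strand, hg38). It was at 94.7, 103 and 120 CPM in TSC replicates 1 to 3, at 162 and 97.6 CPM in CTC replicates 1 and 2, and at 209, 258 and 281 CPM in PC replicates 1 to 3. Every TSC and CTC library thus lay below every PC library, while the CTC libraries lay apart, one above the TSC range and one inside it. The log2 fold change was −1.24 ± 0.20 (SE) for TSC against PC, a 2.36-fold lower level, and −0.98 ± 0.24 for CTC against PC, 1.97-fold lower. Both comparisons share the PC libraries. TSC against CTC gave −0.26 ± 0.23, with a 95% interval of −0.71 to 0.19.

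The CTC value of EFNB2 rested mainly on 1 library. CTC replicate 1 counted 162 EFNB2 reads, which gives a 95% Poisson interval of 138 to 189 CPM, counting error only. CTC replicate 2 counted 1023, which gives 91.7 to 104 CPM. These intervals do not overlap. Without CTC replicate 2 the log2 fold change against PC was −0.64 ± 0.26, and without CTC replicate 1 it was −1.36 ± 0.26. The endothelial markers, relevant because vessels also express EFNB2, summed to 3.08 to 7.13 CPM in TSC, 5.99 and 7.06 CPM in CTC and 3.95 to 6.20 CPM in PC. Most of that sum came from VWF and ESAM, which were counted in every library. KDR was at 0 to 0.814 CPM in TSC, 0 and 0.763 CPM in CTC, and 0 to 1.26 CPM in PC. ERG was at 0 in TSC and CTC and at most at 0.503 CPM in PC. TIE1 was at most at 0.141 CPM and CLDN5 at most at 0.0838 CPM in any library. The part of endothelial cells in the EFNB2 levels was not tested. PECAM1 was at 0 in every TSC library, at 0.998 and 0 CPM in CTC, and at most at 0.168 CPM in PC. CDH5 was at 0 in TSC and CTC and at most at 0.0519 CPM in PC, and EMCN was at 0 throughout. TEK was at 0 in TSC, at 0.998 and 0 CPM in CTC, and at most at 0.0519 CPM in PC, where 0.998 CPM in CTC replicate 1 stands for 1 count.

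Among the other ephrin-B ligands, EFNB1 (chromosome X, 68829021 to 68842160, plus strand) had levels of 30.3, 43.5 and 46.6 CPM in TSC, 29.9 and 36.5 CPM in CTC, and 35.4, 32.7 and 44.4 CPM in PC. These groups overlapped, and the log2 fold change was 0.10 ± 0.21 for TSC against PC and −0.14 ± 0.25 for CTC against PC. The ratio of EFNB2 to EFNB1 counts within a library does not depend on scaling between libraries. It was 3.13, 2.37 and 2.57 in TSC, 5.4 and 2.67 in CTC, and 5.92, 7.87 and 6.33 in PC, so that each TSC library lay below each PC library here too. CTC replicate 1 lay close to the lowest PC library and CTC replicate 2 within the TSC range.

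**Figure D2:**
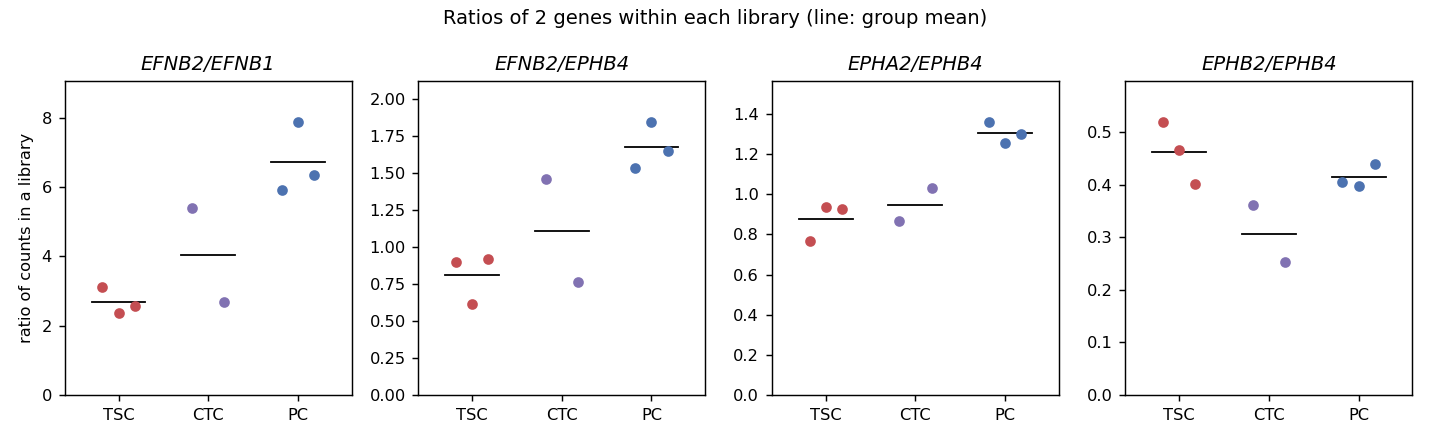
Ratios of the counts of 2 genes within each library (vertical axes from 0, no unit) for TSC, CTC and PC, with the group mean as a line. EFNB2/EFNB1 is 2.37 to 3.13 in TSC, 5.4 and 2.67 in CTC and 5.92 to 7.87 in PC, and EPHA2/EPHB4 is 0.769 to 0.939 in TSC, 0.865 and 1.03 in CTC and 1.26 to 1.36 in PC.

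The share of EFNB2 in the 6 listed ligands differed in the same way. EFNB2 made up 30.8% to 36.2% of the summed level per kilobase of the 6 ligands in TSC, 46.8% and 35.1% in CTC, and 52.9% to 54.9% in PC. The 4 listed ephrin-A genes together made up 42.5% to 54.3% in TSC, 40.1% and 44.99% in CTC, and 32.0% to 35.5% in PC. EFNA2, an ephrin-A gene outside the list, stood at 15.9 ± 2.76 CPM per kilobase in TSC, 5.99 ± 1.04 in CTC and 18.1 ± 4.28 in PC (SD), and adding it as ligand 7 moved these shares. The share of EFNB2 was then 24.3% to 30.3% in TSC, 43.5% and 31.3% in CTC, and 44.8% to 45.6% in PC, with TSC and CTC still below PC. The ephrin-A share was then 51.9% to 63.9% in TSC, 44.3% and 50.9% in CTC, and 43.8% to 45.6% in PC, so that CTC replicate 1 lay within the PC range.

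**Figure D3:**
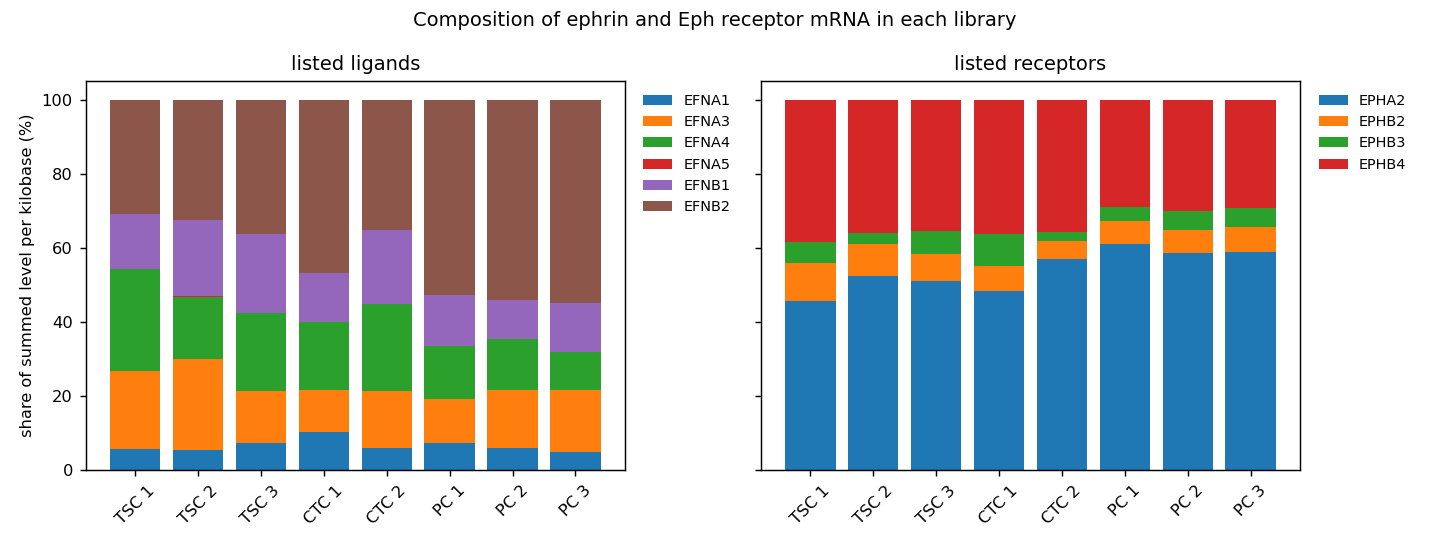
Share of each member in the summed level per kilobase (%, stacked bars from 0 to 100) of the listed ligands and of the listed receptors, per library of TSC, CTC and PC. EFNB2 takes 30.8% to 36.2% of the ligand level in TSC and 52.9% to 54.9% in PC, and EPHA2 takes 45.6% to 52.3% of the receptor level in TSC and 58.5% to 61.2% in PC.

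The ephrin-A genes EFNA4, EFNA3 and EFNA1 lie beside each other on the plus strand of chromosome 1, at 155063740 to 155069553, 155078837 to 155087538 and 155127876 to 155134899. RefSeq also annotates an EFNA4-EFNA3 readthrough gene there, which has no row in the table, so reads of EFNA4 and EFNA3 may be split in a way that the sources used here do not state. These neighbours did not share a pattern over the groups. EFNA1, whose product is a main ligand of EPHA2, was at 9.14, 8.68 and 12.3 CPM in TSC, at 17.95 and 8.58 CPM in CTC, and at 14.6, 14.3 and 13.0 CPM in PC. Each TSC library lay below each PC library, with a log2 fold change of −0.47 ± 0.30, and the CTC libraries lay on both sides of the PC range (−0.25 ± 0.37). CTC replicate 1 held 18 EFNA1 counts, whose Poisson interval reaches from 10.6 to 28.4 CPM.

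EFNA3, another lipid-anchored ligand, was at 24.5, 29.7 and 17.6 CPM in TSC, at 15.0 and 16.0 CPM in CTC, and at 18.01, 28.6 and 32.2 CPM in PC. TSC and PC overlapped (log2 fold change −0.13 ± 0.26), and both CTC libraries lay below all others (−0.75 ± 0.33 for CTC against PC, 0.61 ± 0.33 for TSC against CTC). EFNA4 ranged from 13.5 to 21.2 CPM in TSC, was at 16.0 and 16.6 CPM in CTC, and ranged from 13.5 to 16.6 CPM in PC. Its log2 fold changes lay between 0.07 and 0.22 in the 3 comparisons, within 1 SE of 0. EFNA5 (chromosome 5, 107376894 to 107670937, minus strand) was barely counted. It had 1, 8 and 4 counts in TSC, 0 and 0 in CTC, and 1, 3 and 2 in PC, and it did not pass the filter on low counts. With 3 counts over the CTC group as the floor, the EFNA5 ratio of TSC to that floor was 1.63. This ratio leaves out the counting error of the TSC counts, so it is no firm bound. The 6 counts in PC are too few to say whether PC or CTC was higher.

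Among the receptors, EPHA2 (chromosome 1, 16124337 to 16156069, minus strand) was lower in TSC and CTC than in PC. EPHA2 binds ephrin-A ligands and is known as an abundant Eph receptor of epithelial tumours. RefSeq annotates an antisense gene, EPHA2-AS1, over its 5′ end. It was at 80.9, 158 and 122 CPM in TSC, at 95.8 and 132 CPM in CTC, and at 186, 175.5 and 222 CPM in PC, and no TSC or CTC library reached the lowest PC library. TSC replicate 1 was the lowest library of all. The log2 fold change was −0.69 ± 0.22 for TSC against PC and −0.75 ± 0.26 for CTC against PC, about the same size, and 0.06 ± 0.26 for TSC against CTC. Neither comparison with PC passed the threshold over all genes in the main edgeR fit. Of 16 alternative fits, 2 called EPHA2 in TSC against PC (limma-voom and no filter). In CTC against PC 3 did (no filter, only the 2 groups compared, and without TSC replicate 1). As the contrasts were in view when the members were chosen, these calls are no support. Relative to EPHB4 in the same library, EPHA2 counts stood at 0.769, 0.939 and 0.929 in TSC, 0.865 and 1.03 in CTC, and 1.36, 1.26 and 1.30 in PC.

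EPHB2, a Wnt-driven receptor of the crypt base, lay lower in CTC and not in TSC. It is on chromosome 1 (22710838 to 22921500, plus strand). Its level was 54.6, 78.3 and 52.5 CPM in TSC, 39.9 and 32.2 CPM in CTC, and 55.3, 55.6 and 75.1 CPM in PC. Both CTC libraries lay below every other library, and TSC and PC covered the same range. The log2 fold change was −0.82 ± 0.26 for CTC against PC, 0.82 ± 0.26 for TSC against CTC, and −0.002 ± 0.21 for TSC against PC. CTC replicate 1 held 40 EPHB2 counts and replicate 2 held 338. In CTC against PC, EPHB2 did not pass the threshold over all genes in the main edgeR fit and passed in 5 of 16 alternative fits.

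EPHB3, the other crypt receptor (chromosome 3, 184561785 to 184582408, plus strand), did not follow EPHB2. It was at 11.1, 10.02 and 15.8 CPM in TSC, at 19.0 and 6.20 CPM in CTC, and at 12.5, 16.8 and 21.1 CPM in PC. The CTC libraries lay far apart, one of them the lowest of all 8 and the other near the top, and the log2 fold change was −0.73 ± 0.46 for CTC against PC and −0.45 ± 0.35 for TSC against PC. EPHB4 (chromosome 7, 100802565 to 100827523, minus strand), the receptor that binds ephrin-B2 with preference, was at 105, 168 and 131 CPM in TSC, at 111 and 128 CPM in CTC, and at 137, 140 and 171 CPM in PC. TSC overlapped PC (−0.15 ± 0.19), and CTC lay slightly below PC (−0.31 ± 0.22). The ratio of EFNB2 to EPHB4 counts, ligand to receptor, was 0.900, 0.612 and 0.915 in TSC, 1.46 and 0.762 in CTC, and 1.53, 1.84 and 1.65 in PC.

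Of the 10 members, 9 passed the filter and were fitted together with all 14255 tested genes. In TSC against PC, 1 member, EFNB2, was past an adjusted p of 0.05, and it was lower. Of all tested genes 0.505% were past it, 0.281% lower and 0.224% higher. In CTC against PC, EFNB2 was again the 1 member past the threshold, lower, where 3.92% of all tested genes were past it, 2.52% lower and 1.4% higher. In TSC against CTC 0 members were past it, against 0.898% of all tested genes, 0.526% lower and 0.372% higher. The count of 0 is edgeR's with its default filter on low counts. DESeq2 and limma-voom gave 0 as well, whereas edgeR with no filter called 1, EPHB2. At an unadjusted p under 0.05 there were 2 of the 9 members in TSC against PC (10.3% of all tested genes), 4 in CTC against PC (23.6% of all) and 1, EPHB2, in TSC against CTC (16.7% of all). Every TSC library lay below every PC library for 3 of the 9 (EFNA1, EFNB2 and EPHA2), as for 9.9% of all tested genes, and above for 0 (8.96% of all). Every CTC library lay below every PC library for 5 of the 9 (EFNA3, EFNB2, EPHA2, EPHB2 and EPHB4), as for 24.7% of all tested genes, and above for 0 (19.9% of all). Every TSC library lay above every CTC library for EFNA3 and EPHB2, as for 15.4% of all, and below for 0 (13% of all). Since the members were chosen with these contrasts in view, nothing is read from these counts.

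**Figure D4:**
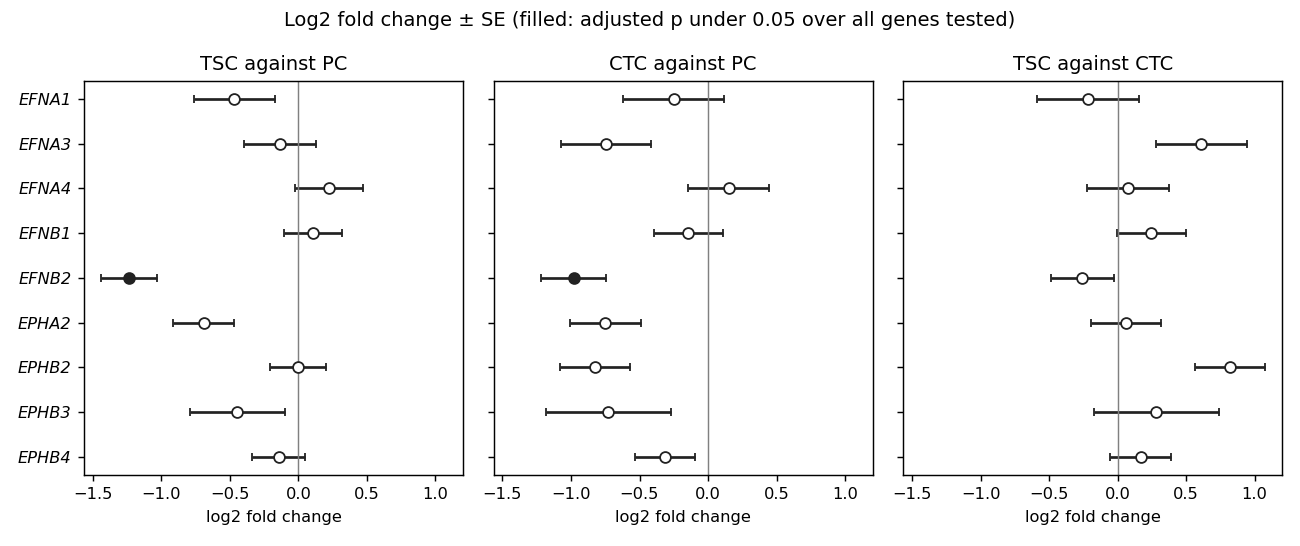
Log2 fold change with its SE (horizontal axis) of the 9 fitted members for TSC against PC, CTC against PC and TSC against CTC; filled points have an adjusted p under 0.05 over all genes tested. EFNB2 is filled at −1.24 and −0.98 in the comparisons with PC, and EPHB2 lies at −0.82 for CTC against PC but at −0.002 for TSC against PC.

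How far these values rest on single libraries differed between the members. EFNB2 in TSC against PC ranged from −1.37 to −1.15 when any 1 of the 8 libraries was left out. Its call was lost without TSC replicate 3, PC replicate 2 or PC replicate 3. In CTC against PC it ranged from −1.36 to −0.64, and the call was lost without TSC replicate 3, CTC replicate 2 or any 1 of the PC replicates. Since these contrasts were in view when the members were chosen, a call kept in the other fits is no support for it. EPHA2 ranged from −0.95 to −0.50 in TSC against PC and from −1.03 to −0.57 in CTC against PC. EPHB2 ranged from −0.95 to −0.64 in CTC against PC and from −0.23 to 0.15 in TSC against PC. For EPHB3, CTC against PC was 0.16 without CTC replicate 2 and −1.45 without CTC replicate 1, so its direction depended on the library. EFNA1 behaved alike, at 0.36 without CTC replicate 2 and −0.70 without CTC replicate 1.

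**Figure D5:**
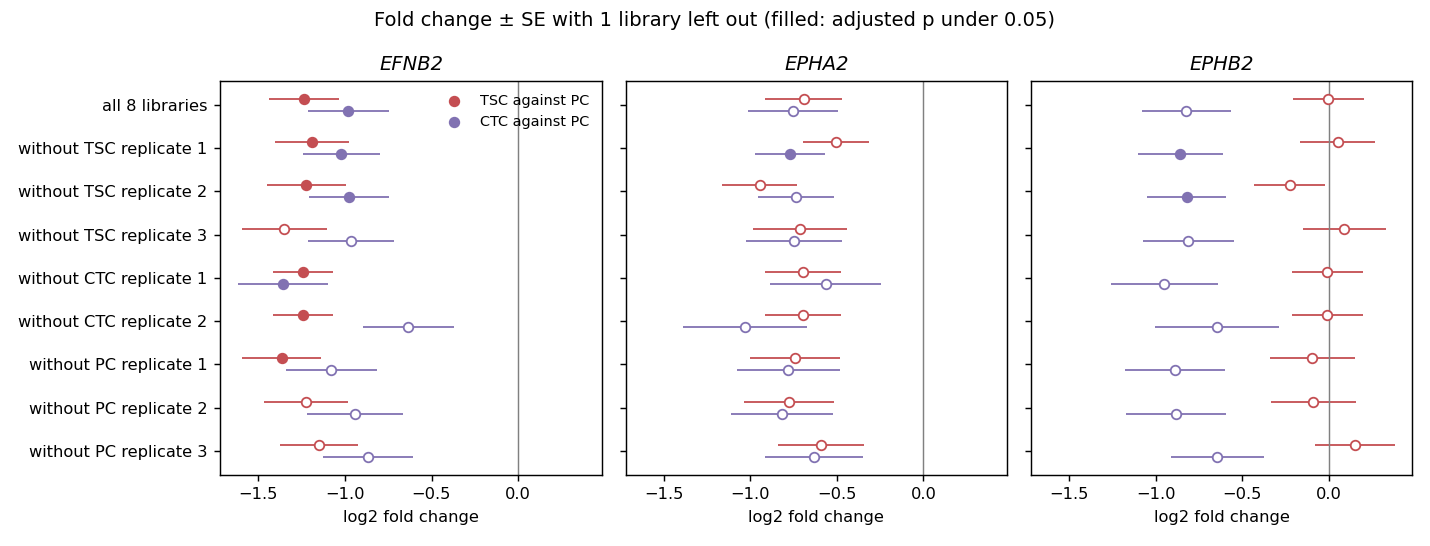
Log2 fold change with its SE (horizontal axis) of EFNB2, EPHA2 and EPHB2 for TSC against PC and CTC against PC, with all 8 libraries and with 1 library left out per row; filled points have an adjusted p under 0.05 over all genes tested. EFNB2 in TSC against PC stays between −1.37 and −1.15, while in CTC against PC it is −0.64 without CTC replicate 2 and −1.36 without CTC replicate 1.

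Outside the 10 members, the family held a further ligand that was lower in CTC. The list of other family genes was also made with earlier results of these data known, so its values are description. EFNA2, an ephrin-A gene on chromosome 19 (1284227 to 1301431, plus strand), was at 15.6, 17.4 and 12.2 CPM in TSC, at 4.99 and 6.39 CPM in CTC, and at 13.5, 16.7 and 21.5 CPM in PC. It fell in CTC, by 1.52 ± 0.36 on the log2 scale (n = 2 and 3, both CTC libraries below all PC libraries). The Benjamini-Hochberg adjusted p from edgeR over all tested genes was 0.0323. CTC replicate 1 held 5 EFNA2 counts, and the call was kept in 2 of 8 fits with 1 library left out, those without TSC replicate 1 or TSC replicate 2. Over these 8 fits the adjusted p ran from 0.0145 to 0.259. EFNA2 did not pass in TSC against PC (−0.20 ± 0.27) or in TSC against CTC (1.32 ± 0.36, adjusted p = 0.104 by edgeR). EPHB1 had 0 counts in all TSC and all CTC libraries and 8, 13 and 19 counts in PC. With 3 counts over the group as the floor, the ratio of PC to that floor was 9.76 for TSC and 3.66 for CTC. These ratios leave out the counting error of the PC counts. EPHB1 passed the count filter only through the PC libraries, where it is high. It was not past the threshold in TSC against PC or CTC against PC (adjusted p = 0.22 and 0.174 by edgeR). EPHA4 (adjusted p = 0.313 by edgeR in CTC against PC), EPHA8, EPHA10 and EPHB6 were fitted and did not pass in any comparison. EPHA8 had 41 counts in all libraries together, 26 of them in PC replicate 3. EPHA1, EPHA3 and EPHA7 were listed at 0 in all libraries.

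The proteins that pass on Eph and ephrin signals were followed through 56 genes: 42 of receptor signalling (adaptors, kinases, phosphatases and guanine exchange factors), 6 of signalling through the ephrin tail and 8 of shedding and cleavage. Of these, 53 were tested. The lists were drawn up with earlier results of these data known. Nothing about Eph signalling is therefore read from the counts and shares of the 53 in any comparison. In TSC against PC edgeR called 0 of the 53, while 7 had an unadjusted p under 0.05 (13.2%, against 10.3% of all tested genes). DESeq2 called 1, SDCBP, and limma-voom called 2, SDCBP and RHOA. The median log2 fold change of the 53 was −0.01, against 0.0063 over all tested genes. SDCBP encodes syntenin, a PDZ protein that binds the tail of ephrin-B ligands, and averaged 141 ± 20.3 CPM in TSC, against 84.5 ± 11.5 CPM in PC (SD, n = 3 each; log2 fold change 0.73 ± 0.18, adjusted p = 0.101 by edgeR). ADAM10, the protease gene known for cleaving ephrins in complex with Eph receptors, had a log2 fold change of 0.54 ± 0.18 (adjusted p = 0.282 by edgeR). Other genes of the same 2 lists lay lower in TSC. RGS3 had a log2 fold change of −0.52 ± 0.20 and MMP14 of −0.77 ± 0.39 (adjusted p = 0.407 and 0.528 by edgeR). The log2 fold change was positive for 2 of 5 tested genes of the ephrin tail and 5 of 7 of shedding and cleavage. SDCBP, ADAM10, RGS3 and MMP14 were chosen as examples after their values were seen.

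In CTC against PC, 2 of the 53 were called, 1 higher and 1 lower, which at 3.77% is near the 3.92% of all tested genes. At an unadjusted p under 0.05 there were 19 (35.8%, against 23.6% of all), 7 higher and 12 lower. Because the lists were made with earlier results known, this share and the calls below are description only. The median log2 fold change of the 53 was −0.0073, against −0.04 over all tested genes. ARHGEF16, a guanine exchange factor of the ephexin group that acts with EPHA2, fell to 20.0 and 15.6 CPM in CTC, against 30.9, 39.4 and 40.5 CPM in PC (log2 fold change −1.12 ± 0.28, n = 2 and 3, adjusted p = 0.0371 by edgeR). It was kept in 3 of 8 fits with 1 library left out, those without TSC replicate 1, TSC replicate 2 or CTC replicate 1. VAV3, a guanine exchange factor, was the gene called higher in CTC, with 5 and 41 counts in CTC and 0, 0 and 3 counts in PC. The ratio of pooled counts was 55.8, with a 95% interval of 17.9 to 280 that covers counting error only. VAV3 passed the count filter only through the CTC libraries, where it is high, so its call is no support for a difference. Those libraries also held the leukocyte markers, and the part of blood cells in VAV3 was not tested. The VAV3 call was kept in 2 of 7 fits with 1 library left out, those without TSC replicate 1 or TSC replicate 2. With a minimum count of 50, VAV3 was not among the called genes. In TSC against CTC edgeR called 0 of the 53, with 14 at an unadjusted p under 0.05 (26.4%, against 16.7% of all), while DESeq2 called 1 and limma-voom 2. The median was 0.02, against 0.06 over all tested genes.

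Among 8590 eligible genes, those whose levels over the 8 libraries were most like EFNB2 were MANBA (Pearson r of log2 CPM 0.990), BAMBI (0.985), OSBPL10 (0.984), PLEKHA2 (0.976) and ENC1 (0.971). Eligible genes had an average log2 CPM of at least 3 and a symbol that passed a name filter. The filter was meant to drop clones, small RNAs, antisense transcripts and pseudogenes. It also dropped coding genes whose symbols end in P and a number, such as MMP14, so closer genes may be missing. EFNB2 was also the member with the largest CTC difference from PC, so the rule gave this 1 set. MANBA, the gene of lysosomal β-mannosidase, was at 24.7 ± 3.50 CPM in TSC, 28.5 ± 4.90 CPM in CTC and 45.5 ± 4.14 CPM in PC (SD). BAMBI, whose product inhibits TGF-β family signalling, stood at 16.0 ± 2.29 CPM in TSC, 23.5 ± 7.64 CPM in CTC and 58.8 ± 6.62 CPM in PC. ENC1, a kelch-family actin-binding protein gene, was at 44.9 ± 4.32 CPM in TSC, 52.1 ± 19.4 CPM in CTC and 82.0 ± 0.596 CPM in PC. The points share libraries and scaling and fall into 3 groups, so the correlations describe these libraries. Among the fitted members, EFNA1 (0.730), EPHB3 (0.722) and EPHA2 (0.693) had the highest correlations with EFNB2, EFNB1 had 0.0054, and EFNA4 had −0.48. The family genes outside the list were not part of this ranking.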

How the data were processed

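Per the labels' protocols, RNA was purified on columns and ribosomal RNA was removed before library preparation for Illumina sequencing. The deposited table of 8 libraries holds whole-number counts per gene that the authors did not normalize. Per the submitters' processing notes, the tools were STAR 2.5.3a and featureCounts 1.5.3 and the build hg38. Neither the annotation nor strand, multi-mapping or host-read handling is given in the sources used here. Without a stated strand setting, reads of a gene and of an overlapping antisense gene, as at EPHA2, cannot be told apart.

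Groups follow the titles, and all 8 columns match a sample. Library pairs were compared by a chi-square of counts and 0 pairs agreed within sampling noise. All libraries entered 1 fit with edgeR 4.0.16 in R 4.3.3 (filterByExpr, TMM, quasi-likelihood F test), over 14255 genes, with Benjamini-Hochberg adjustment and a threshold of 0.05. SE is the size of the log2 fold change divided by the square root of F, and intervals of fold changes are 1.96 SE to each side. CPM divide by the summed counts of tested genes times the TMM factor. Exon lengths are the union of GENCODE 29 exons. Coordinates are RefSeq's (GRCh38.p14). The fit was tested on simulated counts.

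The members and lists were chosen with earlier results of these data known. Named beyond the members are called pathway genes, the 5 eligible genes most like EFNB2 (prior count 2), and others marked in the text as chosen after their values were seen. The other family genes form a list of their own. Alternatives were DESeq2 1.42.0 (size factors or Wald test), limma-voom (limma 3.58.1), total counts, other filters (none, or a minimum count of 50), only the 2 groups compared, the replicate block and each library left out. Transcript length and EFNA2 among the ligands were added after the data were seen.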

Additional observations from a re-analysis of the deposited data

How the results depend on the processing

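Over 16 alternatives, 418 of 432 member fold changes moved by less than the spread between replicates and 14 by more, all of EFNA1, EFNB2 or EPHB3; 12 of the 14 came from leaving out a CTC library and 2, both in TSC against CTC, from limma-voom. None of the called values changed sign. With the longest coding transcript as length, EFNB2 had rank 3 among the members in TSC and CTC in place of rank 2. Adding EFNA2 to the ligands, chosen after the data were seen, lowered the mean share of EFNB2 in all 3 groups, by more than the spread between replicates in TSC and PC.

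The number of called genes depended on the tool and filter. In TSC against PC, 72 genes (32 higher, 40 lower) became 191 with the DESeq2 Wald test, 553 with limma-voom, 355 with no filter and 128 with only the 2 groups, and 10 to 153 with 1 library left out. In CTC against PC, 559 (200 higher, 359 lower) became 1125, 1660, 1535 and 1409 in the same order, and 35 to 1575. In TSC against CTC, 128 (53 higher, 75 lower) became 390, 440, 728 and 82, and 36 to 696. The share of lower calls also moved. In TSC against CTC it was 72 of 82 with only the 2 groups, 214 of 728 with no filter, 33 of 36 without TSC replicate 3 and 199 of 696 without TSC replicate 1. In CTC against PC it was 1154 of 1535 with no filter and 3 of 35 without CTC replicate 2, and in TSC against PC 241 of 355 with no filter and 4 of 16 without TSC replicate 3. Pathway genes called were 1, 2 and 1 in TSC against PC with the Wald test, limma-voom and no filter, 0 in each fit with 1 library left out, 8, 14, 8 and (only the 2 groups) 10 in CTC against PC, 0 to 10 with 1 library left out, and 1, 2 and 3 in TSC against CTC, 0 to 3 with 1 library left out.

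Replicate numbers gave no sign of pairing: deviations of same-numbered libraries from their group means correlated at −0.13 to 0.09. With 3 or 2 libraries in a group, these correlations cannot tell whether same-numbered libraries share an animal or a batch. With the replicate block, 67 genes were called in TSC against PC, 261 in CTC against PC and 61 in TSC against CTC, and 0 pathway genes in CTC against PC. EFNB2 stayed called in TSC against PC (log2 fold change −1.24) and not in CTC against PC (−0.89). The depth of CTC replicate 1, 957607 counts, limits every CTC value.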
